A study of Mus musculus with 6 samples.

Results

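Respiratory complex I is assembled from proteins of both genomes, and the genes described here are the nuclear ones. They were chosen by name, as every protein-coding gene whose symbol starts with Nduf, and 47 of the 33919 genes in the table met that rule. Of these, 7 encode core subunits, 32 encode accessory subunits or close relatives of them, and 8 encode assembly factors. Another 5 Nduf entries in the table were not protein coding and were used only to look at shared reads. All 47 genes passed the filter on low counts and were tested.

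The libraries came from mouse aorta and were made from poly(A) RNA. All of them come from mice treated with Ang II, the vasoconstrictor angiotensin II, and the series holds no untreated group. One group of 3 libraries carries the genotype label WT and the other group of 3 the label KO. The labels call the allele only KO, and the series title names endothelial OTUD1, a deubiquitinase, and its substrate SMAD3. Strain, age, Cre driver and animal identifiers do not appear in the labels, and p-values therefore reflect only library-to-library spread, which may be technical. Whereas the tissue is labelled aorta, the RNA protocol mentions an adipose type.

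Otud1 itself was measured at 8.83, 11.6 and 9.83 CPM (gene counts scaled to library size) in the libraries labelled WT and at 14.5, 15.6 and 16.8 in those labelled KO. It was thus higher in the group labelled KO, with a log2 change of 0.63 (SE 0.12), a direction that the label alone would not lead one to expect. The labels give neither the deleted part of the gene nor the cells that lack it, and the reason was not tested. Because of this the groups are called by their labels throughout, and "higher", "rose" and their opposites mean the KO-labelled libraries against the WT-labelled ones. The libraries held 62.3 M to 71.5 M counts, of which 50.5% to 57.8% fell on genes of the mitochondrial genome. The third WT-labelled library stood apart from the other two on the second principal component, at -64 against 37.3 and 28.1.

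The tissue label was compared with marker lists. Fast skeletal muscle markers summed to 25226 to 25791 CPM in the WT-labelled libraries and 32434 to 33535 in the KO-labelled ones. Smooth muscle markers, the expected main cell type of an aortic wall, summed to 722 to 738 and to 246 to 252 CPM. Brown adipocyte markers summed to 934 to 952 and to 1069 to 1137 CPM. Skeletal muscle and brown fat are tissues rich in mitochondria, and none of the listed markers was at 0 in all libraries. In such bulk samples fewer cells of a type and less RNA per cell cannot be told apart.

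Complex I oxidises NADH, passes the electrons through a flavin and a chain of iron-sulphur clusters to ubiquinone, and pumps protons across the inner mitochondrial membrane. Its nuclear-encoded core subunits form the arm that reaches into the matrix and carry the flavin and the clusters, while the core of the membrane arm is encoded by the mitochondrial genome. Accessory subunits surround this core and are needed for stability and assembly. Assembly factors bind intermediates and are absent from the finished enzyme. In muscle and brown fat the complex is abundant, since both tissues rely on oxidative metabolism.

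Promoter sequence was available from RefSeq (GRCm38.p6) for 40 of the 47 genes, as 42 windows of 300 bases that run from 250 bases before to 50 after the start. Short motifs known from promoters of respiratory genes were searched on both strands, and their matches describe letters only. Longer forms of the NRF1-type and YY1-type motifs were searched first, so the letters used here were chosen with other counts known. The YY1-type motif AAGATGGCG was in 6 of the 42 windows, or 14.3%, against 1.4% of all 32851 promoters of this length and 3.02% of those of genes at a mean of 30 CPM or more. All 6 matches lay on the gene's strand within the 50 bases after the start. They are shown because the motif occurs in genes of every class and in genes that differed in either direction, with the motif in capitals and 30 bases each.
Ndufs7, core subunit, chr10:80249463-80249492, plus strand: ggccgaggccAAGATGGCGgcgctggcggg
Ndufa9, accessory subunit, chr6:126849096-126849125, minus strand: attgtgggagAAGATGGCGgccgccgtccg
Ndufs4, accessory subunit, chr13:114388045-114388074, minus strand: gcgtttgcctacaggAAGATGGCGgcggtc
Ndufs6, accessory subunit, chr13:73328433-73328462, minus strand: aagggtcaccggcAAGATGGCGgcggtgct
Ndufc1, accessory subunit, chr3:51408914-51408943, minus strand: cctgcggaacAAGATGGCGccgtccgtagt
Ndufaf8, assembly factor, chr11:120098934-120098963, plus strand: ggcagggcccAAGATGGCGgcgccctcgag

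The NRF1-type motif TGCGCANGC was in 8 of the 42 windows, or 19.0%, against 4.16% of all promoters, 7.42% of those of tested genes and 10.1% of those of genes at 30 CPM or more. Since it is close to a palindrome, 1 stretch can match on both strands. The same Ndufa5 stretch lies in overlapping windows of that gene and is counted in each of them. The 4 genes with this motif that rose in the libraries labelled KO are shown with 1 match each, in capitals.
Ndufa6, chr15:82354244-82354273, minus strand: gcaccgcgcgTGCGCACGCtgaaggggcgg
Ndufa8, chr2:36049327-36049356, minus strand: cgctggagacGCATGCGCAgatggtaccgg
Ndufb4, chr16:37654541-37654570, minus strand: cgagaagcagTGCGCACGCgcagaatacgc
Ndufaf4, chr4:24897959-24897988, plus strand: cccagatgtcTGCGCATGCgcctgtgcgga

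The share of windows with a motif was set against the direction of each gene. The NRF1-type motif was in 4 of 17 windows of genes that rose, 0 of 4 of genes that fell and 4 of 21 of genes that did not pass the test. The last count holds the same Ndufa5 stretch in each of its overlapping windows. For the YY1-type motif the counts in the same order were 3 of 17, 2 of 4 and 1 of 21. An ETS-type motif, CCGGAAG, was in 14.3% of the windows against 15.6% in genes at 30 CPM or more, and an estrogen-related receptor motif, AAGGTCA, in 7.14% against 4.39%. No difference between these shares was tested.

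Of the 47 genes, 19 were higher and 5 lower in the libraries labelled KO at an adjusted p below 0.05 (edgeR's quasi-likelihood test with Benjamini-Hochberg adjustment over 16620 genes), and 23 did not pass. Their median log2 change was 0.15, beside -0.02 over all genes tested. Across all genes tested, 11.5% were called higher and 10.5% lower (22.0% in all), beside 40.4% and 10.6% of the complex I genes. Calls depend on abundance, and most of these genes are abundant. Among the 1746 genes with a mean of 30 CPM or more, 42.5% were called higher and 18.8% lower (61.3% in all), with a median of 0.13. The 38 complex I genes at that level gave 17 higher (44.7%) and 5 lower (13.2%) with a median of 0.15, which is near that background. The level of 30 CPM was set after the values were seen, just below the least abundant structural subunit other than Ndufa4l2.

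The summed level of the 47 genes was 5287, 5171 and 5323 CPM in the WT-labelled libraries and 5967, 5846 and 5785 CPM in the KO-labelled ones. All KO-labelled sums lay above all WT-labelled sums on this scale. As a share of the counts outside mitochondrial genes and their nuclear copies, the same genes made up 1.83%, 1.79% and 1.85% and then 1.85%, 1.83% and 1.82%. On that scale the groups overlapped. The counts outside mitochondrial genes came to 19.4 M, 17.3 M and 18.02 M in the WT-labelled libraries and 23.0 M, 23.4 M and 23.0 M in the KO-labelled ones, and the part of this difference in the result was not tested. Scaling to the counts outside mitochondrial genes, an alternative chosen after seeing the data, moved the median of all genes to -0.17. Relative to the median of all genes the class medians were 0.33 for core subunits, 0.12 for accessory subunits and 0.19 for assembly factors under either scaling. A change of scale shifts the log2 changes of all genes by nearly the same amount, so this agreement was fixed in advance.

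Of the 7 core subunits 6 rose and none fell. Among all genes tested 11.5% were called higher and 10.5% lower, and among those at 30 CPM or more 42.5% and 18.8%. The median log2 change of the core subunits was 0.31, beside 0.13 among genes at 30 CPM or more. Every core subunit, the one that did not pass included, was higher in all KO-labelled libraries than in all WT-labelled ones, where 19.3% of all genes tested and 50.1% of genes at 30 CPM or more did the same. Their summed level was 1060, 1056 and 1109 CPM in the WT-labelled libraries and 1329, 1302 and 1282 CPM in the KO-labelled ones. No core subunit reached a fold of 1.2 by a test against that fold, and with counts outside mitochondrial genes as the scale 4 of 7 rose. With quantile-normalized FPKM 3 of 7 rose, with a median of 0.14.

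The core subunits of the ubiquinone-binding part that are described here changed by nearly the same amount. Ndufs7, which carries the last iron-sulphur cluster before ubiquinone (chromosome 10, 80249121 to 80256793, plus strand, GRCm38), was at 119, 120.4 and 128 CPM in the WT-labelled libraries and 160.4, 156 and 149 CPM in the KO-labelled ones. The groups did not overlap, and the log2 change was 0.34 (SE 0.05, adjusted p = 0.00054). Ndufs3, a matrix-arm subunit without a cluster (chromosome 2, 90894634 to 90904827, minus strand), was at 91.6, 93.8 and 99.9 CPM and then 127, 116 and 114 CPM. Here too the groups were separate, with a log2 change of 0.32 (SE 0.06, adjusted p = 0.0024), a call lost with quantile-normalized FPKM (0.15, adjusted p = 0.076). Ndufs8, which holds a pair of clusters in the same arm (chromosome 19, 3908863 to 3912734, minus strand), was at 71.4, 71.6 and 67.9 CPM and then 88.7, 86.3 and 86.2 CPM. The log2 change was 0.31 (SE 0.05, adjusted p = 0.0016).

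The core subunits of the NADH-oxidising tip changed less evenly. Ndufv2, a cluster-bearing subunit next to the flavin (chromosome 17, 66078638 to 66101559, minus strand), was at 150.1, 149 and 154 CPM and then 182, 179 and 187 CPM. It rose by 0.27 on the log2 scale (SE 0.04, adjusted p = 0.00079), a call lost with counts outside mitochondrial genes as the scale (0.13, adjusted p = 0.052) and with quantile-normalized FPKM (0.089, adjusted p = 0.092). Ndufv1, which binds NADH and the flavin (chromosome 19, 4007384 to 4012759, minus strand), was at 200.3, 200.2 and 199 CPM and then 225, 229 and 223 CPM. These groups were tight and separate at a log2 change of 0.17 (SE 0.04, adjusted p = 0.0068), yet the direction turned to -0.025 when the deposited FPKM were quantile normalized, and with counts outside mitochondrial genes as the scale it was at 0.025 (adjusted p = 0.68). Ndufs1, the large subunit that carries several clusters (chromosome 1, 63143596 to 63176822, minus strand), was at 62.5, 65.4 and 66.3 CPM and then 70.8, 75.5 and 66.8 CPM. The lowest KO-labelled value lay only just above the highest WT-labelled one, and its log2 change of 0.13 (SE 0.06) did not pass (adjusted p = 0.16).

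**Figure D1:**
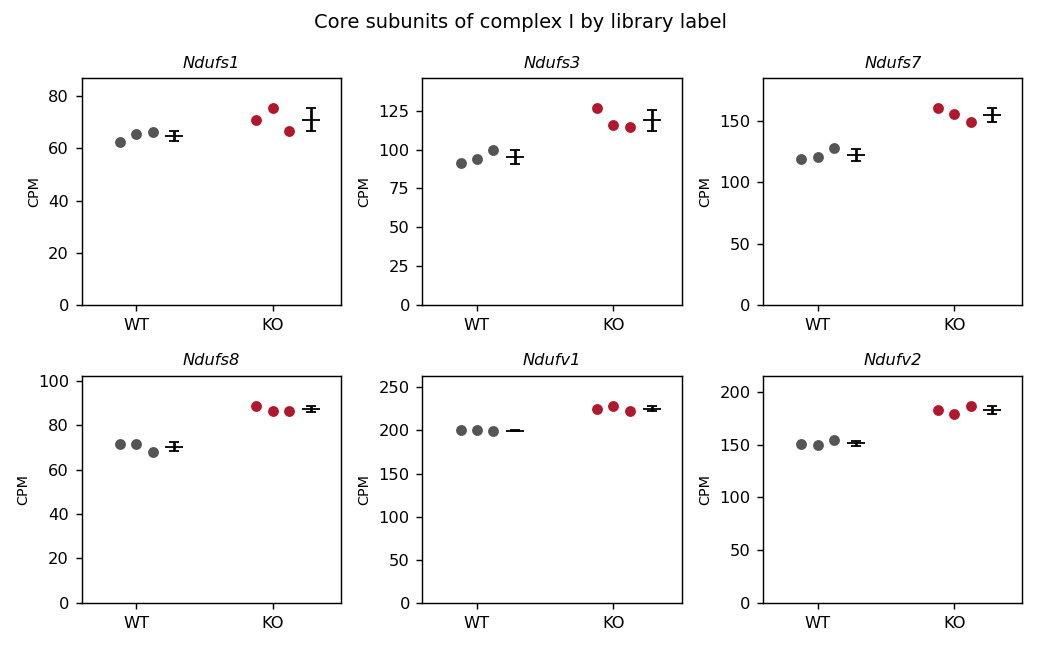
TMM-scaled CPM of 6 nuclear-encoded core subunits in each library, by group label. Points are libraries, and the bars beside them are the mean and SD of 3 libraries. For each subunit plotted the KO-labelled points lie above the WT-labelled ones, least clearly for Ndufs1, and for Ndufv1 the direction turned under quantile-normalized FPKM.

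Levels of different genes can be set side by side only per length, as FPKM, which divides fragments by gene length and library size. Ndufv1 (65.2 ± 2.91 FPKM), Ndufs7 (61.2 ± 5.09) and Ndufv2 (60.5 ± 3.9) had overlapping ranges of mean ± SD in the WT-labelled libraries (SD, n = 3). Ndufs8 (46.8 ± 1.04 FPKM) and Ndufs3 (37.6 ± 3.34) came next. Ndufs1 was the lowest core subunit described, at 6.87 ± 0.45 FPKM in the WT-labelled libraries and 8.38 ± 0.635 in the KO-labelled ones. The length implied by the deposited counts and FPKM is about 1.1 times the summed exon length of each gene, which is 8086 bases for Ndufs1 and 5628 for Ndufb2.

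Of 32 accessory subunits, 11 rose, 5 fell and 16 did not pass, shares that are not above the 42.5% higher and 18.8% lower among genes at 30 CPM or more. They had a median log2 change of 0.10 that turned to -0.044 when scaled to counts outside mitochondrial genes and to -0.054 with quantile-normalized FPKM. The counts higher and lower were 9 and 10 under the former scaling, 7 and 11 under the latter, and 18 and 0 with limma on log2(FPKM + 1). In 14 genes all KO-labelled libraries lay above all WT-labelled ones and in 7 genes all lay below, where 19.3% and 19.4% of all genes tested, and 50.1% and 23.5% of those at 30 CPM or more, did so. Leaving out Ndufa4 and Ndufa4l2, whose products are not fixed parts of complex I, 10 of 30 rose and 5 fell. Without the third WT-labelled library, 13 of 32 rose and 4 fell.

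The largest rise among the accessory subunits as counted in the table, by 0.60 on the log2 scale (SE 0.09, adjusted p = 0.00071), was that of Ndufa12 (chromosome 10, 94198720 to 94221443, plus strand), a subunit of the NADH-oxidising arm. It was at 53.8, 51.9 and 58.9 CPM in the WT-labelled libraries and 73.8, 81.2 and 94.8 CPM in the KO-labelled ones, where the values were also more spread. Reads of Ndufa12 may be split with its processed copy Ndufa12-ps, which the table lists at 32.9, 33.1 and 30.3 CPM and then 49.7, 29.4 and 13.8 CPM. The copy held 37.9%, 39.0% and 34.0% of the sum of the pair in the WT-labelled libraries and 40.2%, 26.6% and 12.7% in the KO-labelled ones, so its share varied far more among the latter. Gene and copy together were at 86.7, 85.0 and 89.3 CPM and then 124, 111 and 109 CPM. With the copy's counts added, the log2 change of Ndufa12 was 0.39 (adjusted p = 0.00075), still past the threshold but below the values of Ndufb5 (0.56) and Ndufa8 (0.46). This alternative was chosen after seeing the data. For Ndufs6 and Ndufab1, whose copies were at means of 2.57 and 2.96 CPM in the WT-labelled libraries, the same step gave -0.26 and 0.18 with unaltered calls.

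**Figure D2:**
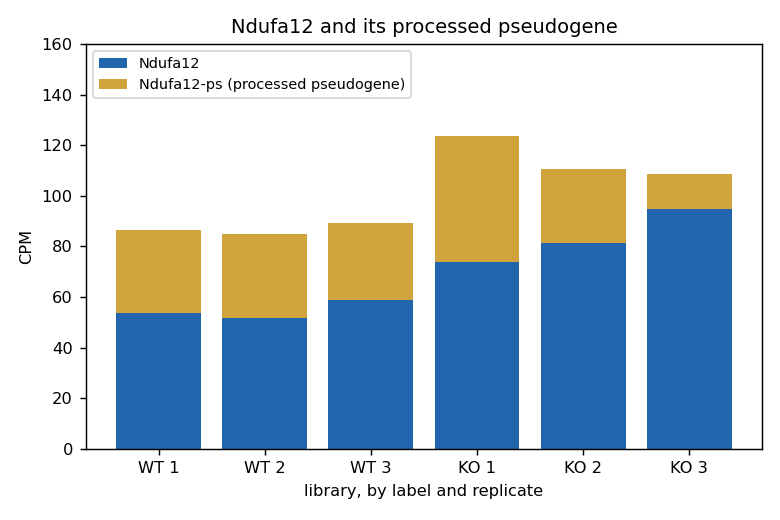
CPM of Ndufa12 and of its processed copy Ndufa12-ps in each of the 6 libraries, stacked so that the bar height is the sum of the pair. The sums are 85.0 to 89.3 in the WT-labelled libraries and 109 to 124 in the KO-labelled ones, while the copy's part ranges from 13.8 to 49.7 CPM among the KO-labelled libraries.

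The next largest rises were in subunits that have no listed copy in the table. Ndufb5, a membrane-arm subunit (chromosome 3, 32736990 to 32751566, plus strand), was at 125, 118 and 135 CPM and then 191, 184 and 182 CPM. That is a log2 change of 0.56 (SE 0.05, adjusted p = 3.4e-05), with no overlap between the groups. Ndufa8, a subunit with twin cysteine motifs on the intermembrane side (chromosome 2, 36036326 to 36049406, minus strand), was at 120.3, 120.4 and 118 CPM and then 169, 160.02 and 165 CPM. The WT-labelled values were almost identical, and the log2 change was 0.46 (SE 0.04, adjusted p = 2.6e-05). Ndufa9, which lies beside the ubiquinone site and links the arms (chromosome 6, 126821721 to 126849125, minus strand), was at 120.4, 109 and 111 CPM and then 149, 145 and 142 CPM, a log2 change of 0.36 (SE 0.05, adjusted p = 0.00055). Ndufs4, which stabilises the NADH-oxidising tip and is mutated in Leigh syndrome (chromosome 13, 114287795 to 114388258, minus strand), was at 88.6, 86.0 and 76.4 CPM and then 109, 101 and 108 CPM. It rose by 0.34 on the log2 scale (SE 0.06, adjusted p = 0.0033) with separate groups, and scaled to counts outside mitochondrial genes it was at 0.19 (adjusted p = 0.053), and with quantile-normalized FPKM at 0.14 (adjusted p = 0.15). Ndufb6, a membrane-arm subunit (chromosome 4, 40270591 to 40279421, minus strand), was at 44.2, 44.1 and 44.7 CPM and then 60.0, 56.9 and 58.2 CPM, a log2 change of 0.40 (SE 0.06, adjusted p = 0.00065). The antisense gene Smim27 overlaps 39.0% of its exon bases, and since the strand setting of the counting is not given, reads of the pair cannot be told apart. Smim27 was listed with 200, 185 and 259 counts in the WT-labelled libraries and 114, 165 and 100 in the KO-labelled ones. Ndufb6 had 2965, 2648 and 2799 counts and then 4275, 4157 and 4226.

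Other accessory subunits that rose lay between 0.29 and 0.32 on the log2 scale. Ndufb9, a membrane-arm subunit (chromosome 15, 58933756 to 58939488, plus strand), was among the most abundant per length, at 241 ± 24.1 FPKM in the WT-labelled libraries and 330 ± 24 in the KO-labelled ones (SD, n = 3). Its log2 change in counts was 0.31 (SE 0.05, adjusted p = 0.00086), and the gene model Gm49356, with at most 3 counts in any library, overlaps 19.5% of its exon bases. With quantile-normalized FPKM the call of Ndufb9 was lost (0.16, adjusted p = 0.071). Ndufb4, Ndufa6 and Ndufa10 were at 0.32, 0.32 and 0.31, and in all of them the groups did not overlap. Ndufa4, first isolated with complex I and now placed in complex IV (chromosome 6, 11900292 to 11907483, minus strand), was at 324, 339.5 and 334 CPM and then 416, 399 and 409 CPM. The log2 change was 0.29 (SE 0.04, adjusted p = 0.00019).

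The 5 accessory subunits that fell changed by 0.20 to 0.29 on the log2 scale, and each had all KO-labelled values below all WT-labelled ones. Ndufa2, a small thioredoxin-like subunit of the NADH-oxidising arm, was at 196, 209 and 202 CPM and then 178, 158 and 162 CPM. It fell by 0.29 (SE 0.05, adjusted p = 0.0028). Ndufs6, a zinc-binding subunit of the same arm (chromosome 13, 73319838 to 73328462, minus strand), was at 132, 126 and 124 CPM and then 107, 102 and 106 CPM. Here the log2 change was -0.27 (SE 0.05, adjusted p = 0.0021). Ndufb2, of the membrane arm (chromosome 6, 39592574 to 39603382, plus strand), was at 99.2, 93.7 and 108 CPM and then 85.2, 84.3 and 78.2 CPM, a log2 change of -0.28 (SE 0.06, adjusted p = 0.0092).

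The remaining pair lay closer to the threshold. Ndufa3, a small membrane-spanning subunit (chromosome 7, 3617373 to 3620327, plus strand), was at 85.5, 73.1 and 76.3 CPM and then 69.2, 67.0 and 67.3 CPM, with a log2 change of -0.21 (SE 0.07, adjusted p = 0.046). This call was lost without WT-labelled library 1 (adjusted p = 0.17) or 3 (0.070) and without KO-labelled library 1 (0.094), 2 (0.14) or 3 (0.13). Ndufc1, a small subunit of the membrane arm (chromosome 3, 51404677 to 51408988, minus strand), was at 97.2, 96.0 and 89.3 CPM and then 85.8, 81.5 and 79.1 CPM, with a log2 change of -0.20 (SE 0.06, adjusted p = 0.030). It lost its call without WT-labelled library 1 (adjusted p = 0.11) or 2 (0.084) and without KO-labelled library 2 (0.10) or 3 (0.12). All 5 genes lost their call when limma was run on the deposited log2(FPKM + 1), where the median of all genes was itself 0.15.

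Of the accessory subunits that did not pass, Ndufb8 came nearest, at 231, 234 and 246 CPM and then 257, 261 and 254 CPM. Its log2 change was 0.12 (adjusted p = 0.052), and without the third WT-labelled library it passed (adjusted p = 0.028). Ndufb10 was at 0.14 (adjusted p = 0.071) and passed without the same library (adjusted p = 0.024). Ndufa11 was at 0.15 (adjusted p = 0.080), Ndufab1, the mitochondrial acyl carrier protein, at 0.17 (0.093), and Ndufa7 at 0.16 (0.098). With DESeq2 all 5 of these passed as higher. Ndufb3 was at -0.14 (adjusted p = 0.095) with all KO-labelled values below all WT-labelled ones, and passed with DESeq2 (adjusted p = 0.025) and under 5 other alternatives. Ndufa1, an X-linked membrane-arm subunit, was the same in this, at 144, 136 and 139 CPM and then 126, 132 and 129.9 CPM (log2 change -0.11, adjusted p = 0.11), and passed with DESeq2 (adjusted p = 0.041) and under 4 other alternatives.

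Per length, Ndufa2, Ndufa1 and Ndufb9 had the highest mean over all libraries, and Ndufa4 came next, at 207 ± 10.2 FPKM in the WT-labelled libraries and 282 ± 14.7 in the KO-labelled ones. Ndufa1 was at 287 ± 16.8 FPKM in the WT-labelled libraries and 294 ± 6.35 in the KO-labelled ones, and Ndufa2 at 304 ± 12.8 and 277 ± 27.7 (SD, n = 3). The ranges of mean ± SD of these 2 genes overlapped in both groups. Ndufb11, another X-linked subunit, came after Ndufa4 at 192 ± 16.7 and 222 ± 17.7 FPKM, with a log2 change in counts of 0.06 (adjusted p = 0.48). Ndufa4l2, a relative of Ndufa4 known to be induced by low oxygen, was the least abundant structural gene, at 8.36, 4.08 and 6.12 CPM and then 4.002, 2.68 and 4.75 CPM. The groups overlapped, the log2 change was -0.70 (SE 0.28, adjusted p = 0.10), and without the second WT-labelled library it passed at -0.93 (adjusted p = 0.036).

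**Figure D3:**
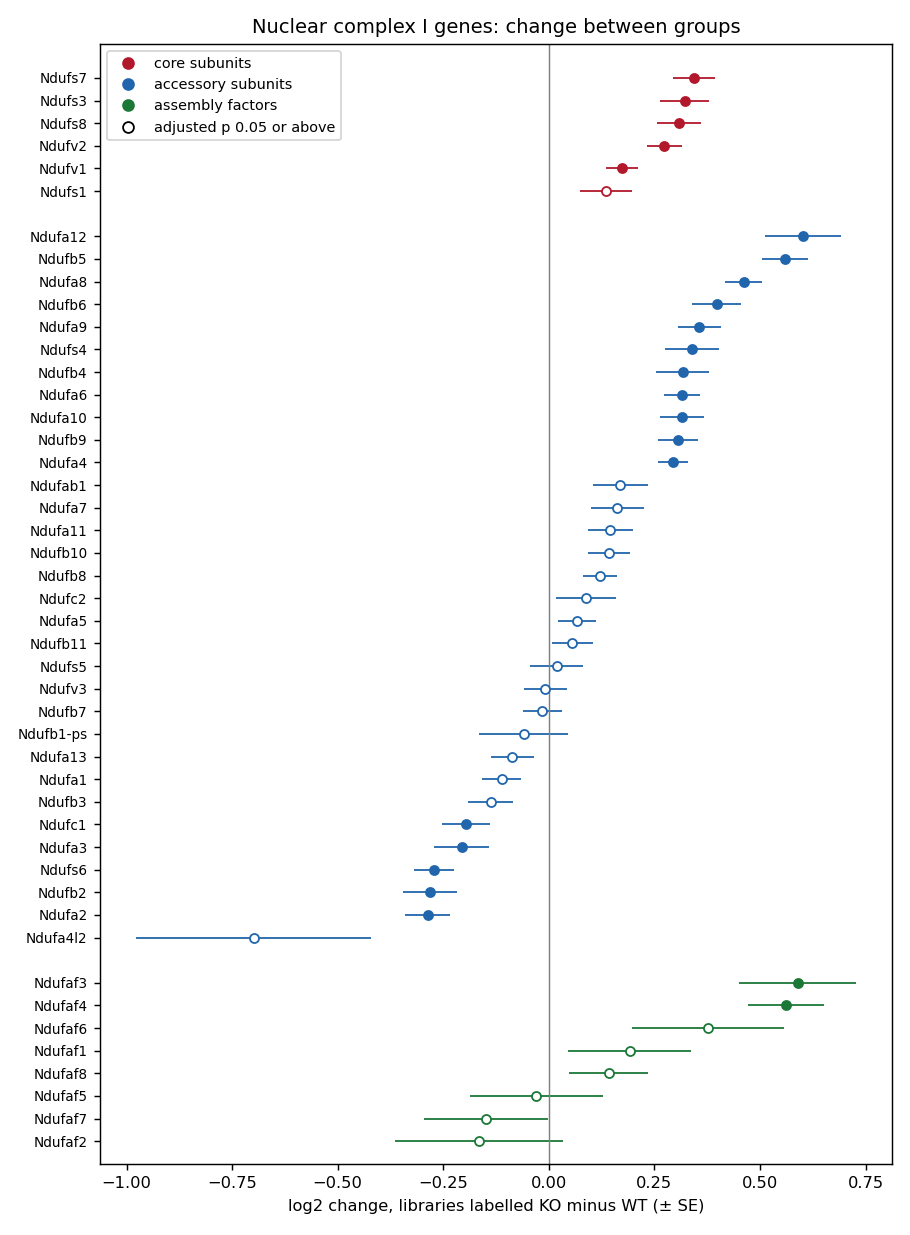
Log2 change (KO-labelled minus WT-labelled) of nuclear complex I genes with bars of 1 SE, grouped as core subunits, accessory subunits and assembly factors. Filled points passed an adjusted p of 0.05 in edgeR. Core subunits lie on the positive side, accessory subunits spread from Ndufa4l2 at -0.70 to Ndufa12 at 0.60, and the sign of Ndufv1, Ndufs1 and several genes near 0 turned under another scaling.

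The rises and falls were also read by the assembly module to which a subunit belongs, beside the 42.5% higher and 18.8% lower among all genes at 30 CPM or more. Ndufa6, Ndufa7, Ndufa9, Ndufa11, Ndufab1, Ndufa4 and Ndufa4l2 were assigned to no module and are left out of these counts. Of the genes left out, Ndufa6, Ndufa9 and Ndufa4 rose and none fell past the threshold. In the module that reduces ubiquinone, 4 of 5 subunits rose and none fell, with a median of 0.32. In the NADH-oxidising module, 4 of 8 rose (Ndufv1, Ndufv2, Ndufs4 and Ndufa12) and 2 fell (Ndufa2 and Ndufs6). In the membrane module built around mt-Nd4, 3 of 6 rose (Ndufb4, Ndufb5 and Ndufb6) and none fell. Around mt-Nd1 the counts were 1 of 3 higher and 1 lower, around mt-Nd2 1 of 5 and 1, and around mt-Nd5 1 of 5 and 1, none of which has a larger share higher than that background. Rises and falls thus stood side by side within 4 of the 6 modules, and no test of a difference between modules was made.

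Coding length was a feature the choice of genes had not used. Of the 12 structural subunits with a coding sequence of 350 bases or less, 1 rose (Ndufa4) and 5 fell, with a median log2 change of -0.17. The 12 include Ndufa4 and Ndufa4l2, whose products are not fixed parts of complex I, and the correlation below includes both. Of the 26 longer ones, 16 rose and none fell, with a median of 0.31, and among the 19 longer accessory subunits alone 10 rose and none fell, also with a median of 0.31. All 5 genes that fell were therefore in the shorter class, though the length of 350 bases was set after the values were seen. Among genes at 30 CPM or more, the 132 of that length had 34.8% higher and 25% lower with a median of 0.07, and the 1539 longer ones had 43.6% higher and 17.9% lower with a median of 0.14. Over the 38 subunits with a coding length, the correlation across genes of length and log2 change was 0.562 (Spearman) and 0.444 (Pearson, on log2 length). Over 1671 genes at 30 CPM or more it was 0.107 and 0.111. These genes share the same 6 libraries and are not independent replicates, and the part of RNA integrity or fragment size in the relation was not tested.

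**Figure D4:**
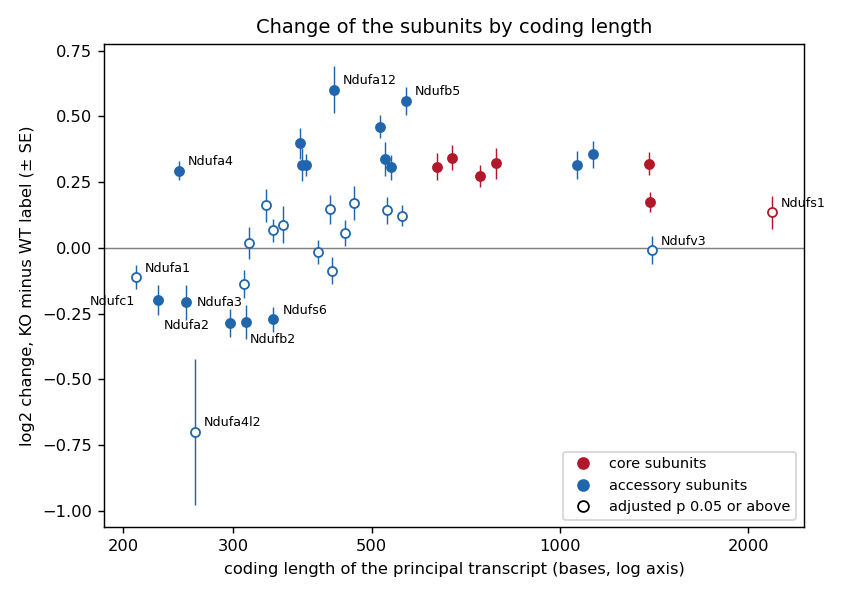
Log2 change (KO-labelled minus WT-labelled) of 38 structural complex I subunits, with Ndufa4 and Ndufa4l2 counted among them, against coding length in bases on a log axis. Bars are 1 SE and filled points had an adjusted p below 0.05. Subunits of 350 bases or less lie mostly below 0 (median -0.17) and longer ones mostly above (median 0.31).

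Assembly factors were scarce beside the subunits, together at 73.9, 74.9 and 68.4 CPM in the WT-labelled libraries and 85.1, 90.6 and 86.1 CPM in the KO-labelled ones. Of 8, 2 rose and none fell, with a median log2 change of 0.17. Of all genes between 3 and 30 CPM, 13.2% rose and 12.4% fell (25.6% in all). The groups did not overlap in 4 of the 8, all of them higher, beside 21.7% of genes at that level higher and 20.1% lower. The pair that rose, Ndufaf3 and Ndufaf4, encodes factors that act together early, when the ubiquinone module joins the membrane. Ndufaf4 (chromosome 4, 24898083 to 24905001, plus strand) was at 17.4, 17.5 and 15.97 CPM and then 23.8, 26.8 and 24.3 CPM, a log2 change of 0.56 (SE 0.09, adjusted p = 0.0011). Ndufaf3 (chromosome 9, 108565537 to 108567434, minus strand) was at 9.25, 7.70 and 6.74 CPM and then 10.7, 12.1 and 12.8 CPM. Its log2 change was 0.59 (SE 0.14, adjusted p = 0.011), and as for Ndufaf4 the groups did not overlap.

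The other assembly factors did not pass. Ndufaf6 was at 4.14, 3.66 and 3.77 CPM and then 5.41, 5.47 and 4.15 CPM (log2 change 0.38, adjusted p = 0.18), where the lowest KO-labelled value nearly touched the WT-labelled range. Ndufaf8 was at 13.1, 13.9 and 14.7 CPM and then 15.2, 15.6 and 15.2 CPM (0.14, adjusted p = 0.34). Ndufaf1, a factor for the membrane arm, overlapped between groups at 11.8, 11.98 and 8.55 CPM and then 11.6, 11.5 and 13.8 CPM (0.19, adjusted p = 0.41). Ndufaf5 and Ndufaf7, both enzymes that modify core subunits, also overlapped. Ndufaf5 was at 7.73, 8.47 and 8.37 CPM and then 7.26, 9.96 and 6.85 CPM (-0.03, adjusted p = 0.93), and Ndufaf7 at -0.15 (adjusted p = 0.54). Ndufaf2 was at 3.89, 5.39 and 4.43 CPM and then 4.80, 3.54 and 3.87 CPM (-0.17, adjusted p = 0.62). An antisense non-coding RNA overlaps 65.6% of its exon bases, with at most 5 counts in any library.

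Of 11 further assembly factors of complex I whose names do not start with Nduf, 4 rose and none fell, with a median of 0.22. Among all genes between 3 and 30 CPM, 13.2% rose and 12.4% fell. The 4 that rose are named here. They were Timmdc1, a membrane-arm assembly factor (log2 change 0.68), Dmac2 (0.51), Ecsit (0.42) and Tmem70 (0.42). Timmdc1 was at 9.64, 8.25 and 9.68 CPM and then 16.01, 13.995 and 14.2 CPM, without overlap.

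The 7 complex I subunits encoded by the mitochondrial genome were measured in the same libraries. None of them rose and 2 fell, with a median log2 change of -0.10, beside 42.5% higher and 18.8% lower among genes at 30 CPM or more. The falls were in mt-Nd3 (-0.27, adjusted p = 0.0015) and mt-Nd6 (-0.32, adjusted p = 0.0056). Only mt-Nd4l had a positive value, at 0.07, on this TMM scale. In the deposited FPKM the group mean went up from the WT-labelled to the KO-labelled libraries for mt-Nd1 (40772 to 43809) and mt-Nd2 (30166 to 31906). It also went up for mt-Nd4 (30591 to 31326), mt-Nd5 (11998 to 12417) and mt-Nd4l (11471 to 13413). It went down for mt-Nd3 (11418 to 10528) and mt-Nd6 (17638 to 15696). With limma on log2(FPKM + 1) the median of all genes was itself 0.15, so the direction depends on the scale. The summed level of the 7 genes was 163410 to 188160 CPM in the WT-labelled libraries and 154040 to 171570 CPM in the KO-labelled ones, with overlap. Nuclear copies of mitochondrial genes held 15.4% to 15.97% of counts in the WT-labelled libraries and 14.3% to 14.7% in the KO-labelled ones. Reads of these 7 subunits may be split with such copies, and the part of this in their values was not tested. The strand setting of the counting is not given, so reads from either strand of a gene such as mt-Nd6 cannot be told apart. The nuclear-encoded and mitochondrially encoded values were not tested against each other.

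Nuclear genes of the other respiratory complexes were read beside complex I from lists of their own. In complex II 3 of 4 rose and none fell (median 0.35), with Sdhb at 0.41 and Sdhd at 0.51. In complex III 6 of 9 rose and none fell (median 0.24), with the cytochrome gene Cyc1 at 0.42. In complex IV 10 of 13 rose and 1 fell (median 0.23), the latter being Cox8b, a muscle and brown fat isoform, at -0.36. In the ATP synthase 12 of 15 rose and 3 fell (median 0.29), with Atp5b at 0.46. Beside these, complex I had 6 of 7 core and 11 of 32 accessory genes higher. Among all genes at 30 CPM or more, 42.5% were called higher and 18.8% lower. No difference between complexes, or from that share, was tested.

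Of 16 regulators of mitochondrial gene expression, 4 rose and none fell (median 0.23), beside 11.5% higher and 10.5% lower among all genes tested. Esrra, an estrogen-related receptor that activates respiratory genes, was at 44.2, 37.8 and 41.2 CPM and then 63.3, 62.0 and 66.6 CPM. Its groups were far apart, at a log2 change of 0.64 (adjusted p = 9.7e-05). Esrrb (1.26), Esrrg (0.95) and the mitochondrial RNA polymerase gene Polrmt (0.51) rose too. Nrf1, whose motif is shown above, was at 0.45 (adjusted p = 0.064), Ppargc1a at 0.39 (0.105) and Yy1 at 0.07 (0.61), and none of these passed.

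Markers of other cell types differed between the same groups. They are read beside 11.5% higher and 10.5% lower among all genes tested, and 42.5% and 18.8% among those at 30 CPM or more. Of 15 fast skeletal muscle markers 11 rose, 1 fell and 3 did not pass (median 0.40), with the fast myosin genes Myh4 at 1.43 and Myh2 at 1.04. The fast marker that fell was Pvalb, at -0.78 (adjusted p = 5.0e-07). Of 10 slow skeletal muscle markers 1 rose and 7 fell (median -0.79), and their sum went from 2410 to 2473 CPM in the WT-labelled libraries to 1601 to 1632 CPM in the KO-labelled ones. Of 10 brown adipocyte markers 5 rose and 3 fell (median 0.05), with the uncoupling protein gene Ucp1 at 0.75 and Dio2 at -1.30. Of 10 white or shared adipocyte markers 4 rose and 4 fell (median -0.14), with sums of 3483 to 3520 and 3646 to 3661 CPM.

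Markers of cell types of the vessel wall were read in the same way, beside the same shares of all genes. Of 10 smooth muscle markers none rose and 9 fell (median -1.57), with the actin gene Acta2 at -2.07. Of 10 fibroblast markers none rose and all 10 fell (median -1.50), their sum going from 1187 to 1216 CPM to 542 to 547 CPM. Of 10 endothelial markers 2 rose and 4 fell (median -0.12), with the von Willebrand factor gene Vwf at 1.27, Egfl7 at -0.54 and sums of 618 to 641 and 577 to 586 CPM. Of 6 cardiac muscle markers tested 1 rose and 2 fell (median -0.55), with sums of 29.3 to 31.4 and 18.1 to 28.1 CPM. The part of these marker differences in the complex I values was not tested.

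**Figure D5:**
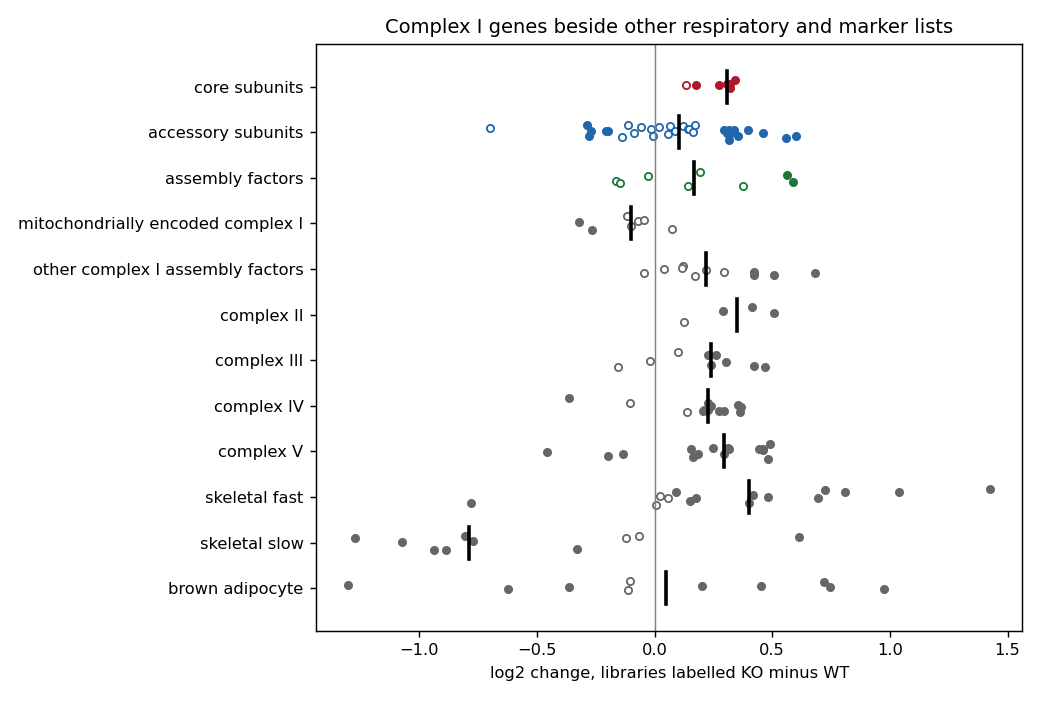
Median log2 change (KO-labelled minus WT-labelled) of complex I classes, other respiratory lists and 3 marker lists, as vertical bars, with points for single genes (filled where the adjusted p was below 0.05). Nuclear core subunits (0.31), complexes II to V (0.23 to 0.35) and fast skeletal muscle markers (0.40) lie above 0, while mitochondrially encoded complex I (-0.10) and slow skeletal muscle markers (-0.79) lie below, and the accessory median (0.10) turned negative under 2 other scalings. All values are on the TMM scale. In the deposited FPKM, mt-Nd1, mt-Nd2, mt-Nd4, mt-Nd5 and mt-Nd4l had higher means in the KO-labelled libraries, and mt-Nd3 and mt-Nd6 lower ones.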

How the data were processed

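Gene counts and FPKM were measured in 6 libraries, 3 per group. The count columns hold whole-number gene counts that the authors deposited without normalization. FPKM columns (so named per the file headers) were deposited beside them, by a calculation not given in the sources used here. Tools named in the submitters' processing notes, without roles, are HISAT2 2.0 and Bowtie 0.12.2, with the build mm8. Neither the counting program nor its strand setting is given. Coordinates in the table were identical to GENCODE release 21 (GRCm38) for 91.2% of shared genes and 36 of 47 complex I genes, and are given as the table has them. Of counts from 1 to 40, between 33.0% and 34.9% per library were multiples of 4, where an even spread over those values would give 25%. How fragments were counted is not given, so totals may overstate their number. There were 0 rows without a name and 0 columns of other samples.

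Counts were filtered (filterByExpr), TMM-scaled and tested for genotype label alone with edgeR 4.0.16 in R 4.3.3 (quasi-likelihood F-test, two-sided, Benjamini-Hochberg adjustment over 16620 genes, threshold 0.05). CPM are TMM-scaled. The test was checked on simulated counts. Alternatives used DESeq2 1.42.0, limma 3.58.1 on log2(FPKM + 0.1, 0.5 or 1), other scalings and filters, counts divided by 4, a replicate block, a fold of 1.2 and each library left out. Promoters were searched with Python 3.11.15; longer forms of the NRF1-type and YY1-type motifs were searched first and gave other counts, which are not used here. Members and lists were chosen with earlier results of these data known. One core subunit is counted with its class and is not reported here by name. Given by name are the other core subunits, all assembly factors, Ndufa4, Ndufa4l2, the 6 other accessory subunits with the largest rise, all that fell, the 4 most abundant by FPKM, up to 6 that did not pass by smallest p, and up to 3 genes of each other list by smallest p. Ndufb4, Ndufa6, Ndufa10, Tmem70, mt-Nd4l, Polrmt, Pvalb, Nrf1, Ppargc1a and Yy1 were added after their values were seen, or for the motifs.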

Additional observations from a re-analysis of the deposited data

How the results depend on the processing

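Within a class, a value is called moved here when a count changed by over 1.5 times or a median by over the spread between libraries. Across 23 alternatives the values for classes and all genes stayed the same in 199 cases, moved in 52 and changed sign in 2, and for single genes 714 stayed the same, 52 gained a call, 55 lost one and 30 changed sign.

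DESeq2 gave 8 accessory subunits lower and 2650 genes lower in all, and no low-count filter gave 3 accessory subunits lower. Against a fold of 1.2, 0 core subunits, 4 accessory subunits and 1 assembly factor were higher, 0 accessory subunits were lower, and 976 and 1061 of all genes were higher and lower. With limma on log2(FPKM + 1), (FPKM + 0.1) and (FPKM + 0.5), 18 accessory subunits were higher and 0 lower each time. The core medians were then 0.45, 0.46 and 0.455, the accessory medians 0.25, 0.26 and 0.25, the assembly medians 0.29, 0.32 and 0.31, the assembly factors higher 5, 4 and 4, and all genes lower 678, 677 and 673. The median of all genes was 0.15, 0.20 and 0.18 there, and 79.5% of calls were higher with a pseudocount of 1, against 52.1% in the counts. Without a filter on FPKM the medians were 0.45, 0.25 and 0.29, with 0 accessory subunits and 754 genes lower and 71.2% of calls higher. Quantile normalization gave 3 core subunits higher and 7 and 11 accessory subunits higher and lower, with medians of 0.14, -0.054 and 0.054. Median-ratio scaling of FPKM gave medians of 0.24, 0.041 and 0.098. Scaling to counts outside mitochondrial genes, chosen after seeing the data, gave 10 accessory subunits lower, medians of 0.16, -0.044 and 0.018, and 1159 and 2733 of all genes higher and lower (29.8% of calls higher). The cause of these differences was not tested.

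Leaving out each library in turn gave 6 core subunits, 11 to 13 accessory subunits and 2 assembly factors higher and 3 to 5 accessory subunits lower, with 3 lower without WT-labelled library 1 or KO-labelled library 2 or 3. The core median ran from 0.27 to 0.32, the accessory median from 0.089 to 0.11 and the assembly median from 0.12 to 0.21. All genes higher ran from 1465 to 1703 and lower from 1411 to 1468.

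Single genes that changed sign were Ndufaf5 (from -0.22 without KO-labelled library 2 through 0.038 without library 1 to 0.074 without library 3) and, on FPKM, Ndufaf5 (0.084, 0.10 and 0.092, and 0.084 without a filter), Ndufa1 (0.039 each), Ndufb3 (0.013 each) and Ndufaf7 (0.00085 with a pseudocount of 1 and 0.00015 with 0.5). With quantile normalization these were Ndufa11 (-0.046), Ndufb8 (-0.088), Ndufb11 (-0.043), Ndufv1 (-0.025), Ndufa7 (-0.035) and Ndufaf8 (-0.00034), and with median-ratio scaling Ndufb11 (-0.0081). With counts outside mitochondrial genes as the scale they were Ndufa11 (-0.0026), Ndufb8 (-0.027), Ndufs1 (-0.014), Ndufb11 (-0.093), Ndufb10 (-0.0063) and Ndufaf8 (-0.0069).

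The replicate block left the counts at 6 core, 11 and 5 accessory and 2 assembly genes, with 1703 and 1552 of all genes, while Ndufa3 lost its call (adjusted p = 0.053) and Ndufa4l2 gained one (0.043). Deviations of libraries with the same number correlated at 0.0243, -0.00861 and 0.0178, and not every library correlated best with its own number. Over all pairs of a WT-labelled and a KO-labelled library the values ran from -0.0474 to 0.029. With all values this near 0, the check cannot say whether the numbers pair the libraries. With 3 libraries a group no library was tested as an outlier.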
